A study of Arabidopsis thaliana with 12 samples.

Results

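The sulfur deficiency and sulfate assimilation genes of Arabidopsis thaliana were followed over 4 genotypes. They are 10 loci of the 36917 in the deposited table, picked by locus identifier: LSU1, LSU2, SDI1, SDI2, SULTR1;1, SULTR1;2, APR1, APR2, APR3 and GGCT2;1. The list was drawn up around LSU1, which had the largest positive non-additive change, so the values of LSU1 and every non-additive change are given as a description without a test. Whole plants were compared as 3 libraries each of djc31 (SALK_034886), djc62 (SALK_050913), the djc31 djc62 double mutant and wild type, Col-0. The SALK lines are T-DNA insertion lines, each single mutant rests on 1 line, and the double mutant is labelled only as djc31 djc62. Plants were taken from soil at the 4-leaf stage, with 16 h of light per day, and no stress treatment is named, although the series asks how DJC31 and DJC62 take part in abiotic stress responses. Both proteins carry tetratricopeptide repeats and a J domain, the part of co-chaperones that works with HSP70. The labels name neither the time of day of sampling nor separate sowings for the replicates, so the spread behind the p-values may be technical.

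Plants take up sulfate through root transporters such as SULTR1;1 and SULTR1;2. ATP sulfurylase activates it to adenosine 5′-phosphosulfate (APS), APS reductase (the APR genes) turns that into sulfite, and sulfite reductase makes the sulfide that is built into cysteine and then into methionine and glutathione. When sulfur runs short, LSU and SDI genes are induced, uptake and reduction are raised, and glutathione is broken down by enzymes such as GGCT2;1. LSU1, SDI1, SDI2, APR3, GGCT2;1 and the serine hydroxymethyltransferase gene SHM7 are also known as genes that respond together to O-acetylserine, the precursor of cysteine. APR transcripts are known to follow a daily rhythm.

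Libraries held between 13.6 and 31.08 M reads counted in genes. Values are normalised read counts, given per library or as mean ± SD (n = 3). As a check of the labels, DJC31 was at 15.8% of its wild-type level in djc31 and 6.54% in the double mutant, and DJC62 at 31.2% in djc62 and 14.7% in the double mutant. The clock gene LHY was at 29.6% of the wild-type level in djc31, 60.2% in djc62 and 42.8% in djc31 djc62, and TOC1 at 160%, 188% and 160%. These clock differences accompany every comparison with wild type below. LHY also lay apart between the mutants, at 1113 to 1274 in djc31, 1435 to 1851 in the double mutant and 2161 to 2678 in djc62. The TOC1 libraries of the mutants overlapped. Comparisons between mutants thus carry an LHY difference too. The part of clock differences in the sulfur genes was not tested. Of 13 root markers, CASP2, TIP2;3, SKOR and PHO1 passed the filter on low values, and CASP5 and EXPA18 had no reads in any library. The summed root marker level was 248.2 to 400.6 in djc31, 316.9 to 409.7 in djc62, 366.5 to 472.9 in the double mutant and 452.2 to 705.3 in wild type. Without PHO1, a phosphate exporter gene that held 4775 of the markers' reads, it was 23.6 to 49.1 in djc31, 19.8 to 47.0 in djc62, 32.0 to 72 in the double mutant and 71.9 to 113.8 in wild type. PHO1 fell in djc31 and djc62 (limma adjusted p = 0.00576 and 0.0312) and not past the threshold in the double mutant (0.0992). The markers did not move together: CASP2 was at 229% of wild type in djc31, and MYB36 and ESB1 at 387% and 341% in the double mutant, all at low values. TIP2;3, a tonoplast aquaporin that passed the filter through wild type alone and is given without a test, had 0, 0 and 0 in djc31, 0, 1.70 and 4.621 in djc62, 0, 1.49 and 0 in the double mutant and 73.2, 68.3 and 25.5 in wild type. TIP2;3 made up a large part of the wild-type sums without PHO1. Those sums thus do not show that the root markers as a set were higher in wild type. The part of root material in the results was not tested. In bulk plants, fewer cells of a type and less RNA per cell cannot be told apart.

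Transcripts of the listed LSU, SDI and APS reductase genes were low in one or both single mutants. In the double mutant most of them had means near those of wild type, while LSU1 stood at 36.9% and SDI1 at 68.7%. Of the 10 genes, 9 passed the filter (at least 3 libraries with a value of 10 or more). The 8 other than LSU1 had 10 or more in all 12 libraries, so none of them passed through a high genotype alone. They were picked with earlier results of these data known, so their counts beside those of all loci may be shaped by that choice. In djc31 against wild type, 6 of these 8 fell and the other 2 did not pass, where 27.5% of all 19975 tested loci were called, 13.3% higher and 14.2% lower. In djc62 against wild type, 3 of the 8 fell and 5 did not pass (26.7% of loci called, 13.7% higher and 13% lower); the count was 5 in DESeq2 and without djc31 replicate 3. In the double mutant against wild type none of the 8 passed in limma at an adjusted p of 0.05 (29.2% of loci called, 13.8% higher and 15.5% lower). There 2 were higher at an unadjusted p under 0.05, and edgeR and DESeq2 on recovered reads each called 1 higher. The median log2 change of the 8 was -1.32 in djc31, -0.75 in djc62 and 0.07 in djc31 djc62, beside -0.0087, -0.0046 and 0.025 over all tested loci. These 3 comparisons share the wild-type libraries.

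Every gene of the 8 that passed between the double mutant and a single mutant was higher in the double mutant. Against djc31, 6 of the 8 rose (31.3% of loci called, 15.3% higher and 16% lower), with a median log2 change of 1.24, beside 0.034 over all loci. Against djc62, 4 of the 8 rose (19.7% called, 9.38% higher and 10.4% lower), with a median of 0.78, beside -0.0021. In djc62 against djc31, 4 of the 8 were higher (13.8% called, 7.91% higher and 5.85% lower), with a median of 0.56, beside 0.012. This last count was 2 without djc62 replicate 3. These comparisons share libraries with each other and with those against wild type.

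The balance of all calls depends on the scaling. With every library rescaled to the same total, the share of called loci that were higher was 32.0% in djc31, 60.2% in djc62 and 80.2% in djc31 djc62 against wild type, where the deposited scaling gave 48.4%, 51.2% and 47.1%. For the double mutant it was 90.9% against djc31 and 77.8% against djc62, where the deposited scaling gave 48.9% and 47.5%, and for djc62 against djc31 it was 88.4%, against 57.5%. The log2 changes moved by a median of -0.131, 0.0705 and 0.265 in djc31, djc62 and the double mutant against wild type, by 0.395 and 0.195 in the double mutant against djc31 and djc62, and by 0.201 in djc62 against djc31. No call among the 8 genes was lost under that scaling, and 4 were gained: APR1 and GGCT2;1 in the double mutant against wild type, SDI1 in the double mutant against djc31 (limma adjusted p = 0.00925) and APR3 in the double mutant against djc62 (0.0466).

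**Figure D1:**
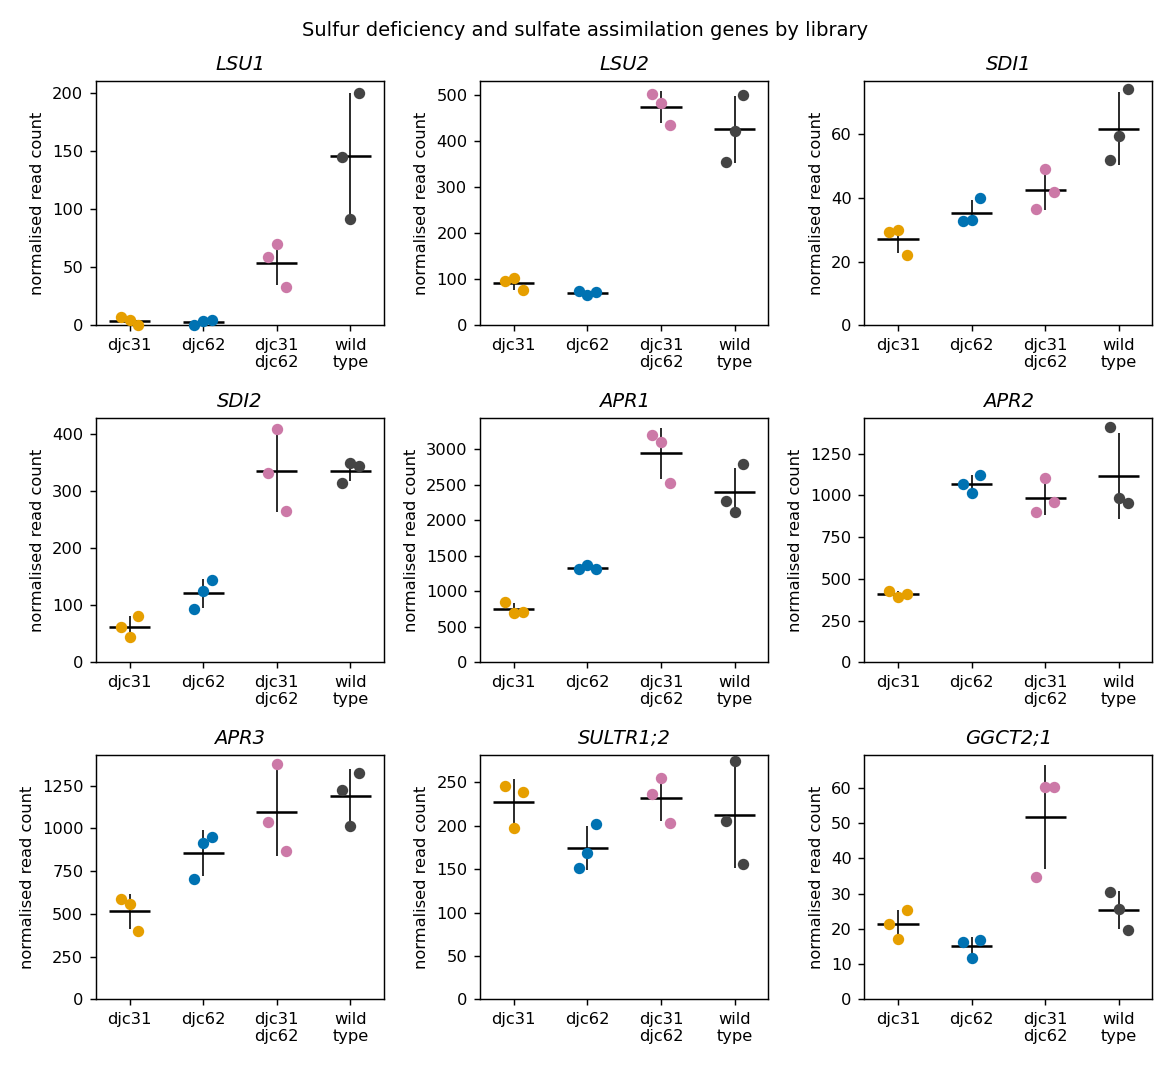
Normalised read count (y axis, from 0) of 9 genes in each library of djc31, djc62, the double mutant and wild type (x axis). Points are libraries, horizontal bars means and vertical bars 1 SD (n = 3). For LSU2 the single-mutant libraries lie at 65.3 to 103.1, below all double mutant and wild-type libraries, which lie at 353.7 to 501.6.

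LSU1 and LSU2 encode small proteins of the RESPONSE TO LOW SULFUR family, whose transcripts are used as marks of sulfur shortage. LSU1 (AT3G49580, chromosome 3) had values of 6.64, 4.30 and 0 in djc31, 0, 3.39 and 4.621 in djc62, 59.0, 69.9 and 32.6 in the double mutant, and 145.3, 91.6 and 200.6 in wild type. No library of a single mutant came near the lowest library of the double mutant, and all double mutant libraries lay below all wild-type libraries. The values rest on 7 reads in djc31, 10 in djc62, 201 in the double mutant and 430 in wild type. LSU1 thus stood at 2.5% of the wild-type level in djc31, 1.83% in djc62 and 36.9% in djc31 djc62. On the log2(value + 1) scale, which can understate changes of low genes, its changes were -5.35, -5.58 and -1.42. As ratios to wild type these are 0.0246, 0.0208 and 0.374, beside 0.025, 0.0183 and 0.369 from the means.

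LSU2 (AT5G24660, chromosome 5) had 95.6, 103.1 and 75.2 in djc31, 73.4, 65.3 and 71.6 in djc62, 501.6, 482.2 and 434.3 in the double mutant, and 353.7, 421 and 499.7 in wild type. The single-mutant libraries lay apart from all others, and the double mutant overlapped wild type. LSU2 was 4.61-fold lower in djc31 (log2 change -2.20 ± 0.18 SE, limma adjusted p = 7.3e-08) and 5.94-fold lower in djc62 (-2.57 ± 0.18, adjusted p = 1.04e-08). In the double mutant it was 5.17-fold above djc31 (limma adjusted p = 2.09e-07) and 6.66-fold above djc62 (adjusted p = 5.1e-08). Between the double mutant and wild type the ratio was 1.12, with a 95% confidence interval of 0.865 to 1.45 (limma adjusted p = 0.524). A p that misses the threshold does not show that levels are alike, and the interval gives the differences these libraries leave possible.

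LSU3 lies next to LSU1 in the TAIR10.1 annotation, and LSU4 next to LSU2. The handling of reads that match several family members is not stated, so reads may be split between them. LSU3 had 3.98, 2.15 and 3.38 in djc31, 16.3, 8.48 and 9.24 in djc62, 74.6, 72.2 and 20.9 in the double mutant and 46.8, 19.3 and 169.3 in wild type. It passed the filter through 1 djc62 library and those of the double mutant and wild type, and its wild-type libraries spread the most widely. It is therefore given without a test. LSU4 averaged 8.56 ± 5.3 in djc31, 7.80 ± 5.7 in djc62, 28.04 ± 9.9 in the double mutant and 7.25 ± 4.94 in wild type. These values rest on 20 reads in djc31, 27 in djc62, 103 in the double mutant and 23 in wild type. All 3 double mutant libraries lay above all others. The rise over wild type was 3.92-fold, with an interval of 1.38 to 11.2, and passed narrowly (limma adjusted p = 0.0473). The double mutant did not pass against djc31 (limma adjusted p = 0.0714) or djc62 (0.0725).

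SDI1 and SDI2 encode proteins induced by sulfur deficiency that are known to hold back glucosinolate synthesis. SDI2 (AT1G04770, chromosome 1) had 62.4, 45.1 and 80.3 in djc31, 93.2, 125.5 and 144 in djc62, 330.6, 409.2 and 265.2 in the double mutant, and 314.1, 348.7 and 343.2 in wild type. The djc31 libraries lay below those of djc62, both lay below the rest, and the double mutant overlapped wild type. SDI2 was 5.42-fold lower in djc31 (log2 change -2.44 ± 0.23 SE, limma adjusted p = 4.33e-07) and 2.8-fold lower in djc62 (-1.49 ± 0.23, adjusted p = 0.000107). It was 5.34-fold higher in the double mutant than in djc31 (limma adjusted p = 1.74e-06) and 2.76-fold higher than in djc62 (adjusted p = 0.000265). The double mutant stood at 0.985 times wild type, with an interval of 0.706 to 1.37 (limma adjusted p = 0.956). SDI2 was 1.94-fold higher in djc62 than in djc31 (limma adjusted p = 0.0113), a call lost without djc62 replicate 3 (0.0705) and in a fit of those 2 genotypes alone (0.0866).

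SDI1 (AT5G48850, chromosome 5) was the lower of the pair in level. It had 29.2, 30.1 and 22.0 in djc31, 32.6, 33.1 and 40.0 in djc62, 36.5, 49.1 and 41.8 in the double mutant, and 51.8, 59.5 and 74.2 in wild type. All mutant libraries lay below all wild-type libraries, those of the double mutant included, although djc31 alone passed the test. SDI1 was 2.23-fold lower in djc31 (log2 change -1.16 ± 0.29 SE, limma adjusted p = 0.00694). Its ratio to wild type was 0.581 in djc62 (interval 0.377 to 0.894, limma adjusted p = 0.0587) and 0.694 in the double mutant (0.451 to 1.07, adjusted p = 0.199). In djc62 DESeq2 on recovered reads called it lower (adjusted p = 0.039), as did limma with 10 added to each value (0.0394), without djc31 replicate 2 (0.0469) and without djc31 replicate 3 (0.049).

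APR1, APR2 and APR3 encode the plastid APS reductases, regarded as a main control point of sulfate assimilation. APR1 (AT4G04610, chromosome 4) had 845.5, 691.8 and 709.1 in djc31, 1306, 1367 and 1317 in djc62, 3195, 3103 and 2525 in the double mutant, and 2272, 2122 and 2785 in wild type. The djc31 libraries were the lowest, the djc62 libraries lay between, and the double mutant overlapped wild type at the top. APR1 was 3.18-fold lower in djc31 (log2 change -1.67 ± 0.12 SE, limma adjusted p = 2.74e-08) and 1.79-fold lower in djc62 (-0.84 ± 0.12, adjusted p = 7.58e-05). It was 1.78-fold higher in djc62 than in djc31 (limma adjusted p = 0.000566). In the double mutant it was 3.92-fold above djc31 (limma adjusted p = 4.12e-08), 2.2-fold above djc62 (adjusted p = 8.97e-06) and at 1.23 times wild type (interval 1.03 to 1.48, adjusted p = 0.0801). The difference from wild type passed in limma without wild type replicate 3 (adjusted p = 0.0248), without double mutant replicate 3 (0.0392) and with the same total per library (0.00243).

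APR2 (AT1G62180, chromosome 1) was low in djc31 alone. It had 427.4, 393.1 and 407.4 in djc31, 1068, 1017 and 1123 in djc62, 899, 1102 and 960.6 in the double mutant, and 1412, 983.3 and 955.4 in wild type. No djc31 library reached the level of any other library, and the other 3 genotypes overlapped. APR2 was 2.68-fold lower in djc31 (log2 change -1.42 ± 0.14 SE, limma adjusted p = 6.88e-07). It was 2.61-fold higher in djc62 than in djc31 (limma adjusted p = 2.51e-05) and 2.4-fold higher in the double mutant than in djc31 (adjusted p = 7.92e-06). Its ratio to wild type was 0.973 in djc62 (interval 0.794 to 1.19, limma adjusted p = 0.865) and 0.895 in the double mutant (0.731 to 1.1, adjusted p = 0.419).

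APR3 (AT4G21990, chromosome 4) had 586.7, 556.4 and 398.9 in djc31, 704.8, 913.1 and 951.9 in djc62, 1038, 1378 and 869.4 in the double mutant, and 1226, 1016 and 1321 in wild type. The djc31 libraries lay below all others, and the djc62 libraries overlapped the double mutant but not wild type. APR3 was 2.33-fold lower in djc31 (log2 change -1.22 ± 0.18 SE, limma adjusted p = 6.23e-05), and 2.12-fold higher in the double mutant than in djc31 (adjusted p = 0.000312). Its ratio to wild type was 0.72 in djc62 (interval 0.554 to 0.935, limma adjusted p = 0.0593) and 0.911 in the double mutant (0.701 to 1.18, adjusted p = 0.615). DESeq2 on recovered reads called the djc62 difference (adjusted p = 0.0434), as did limma on those 2 genotypes alone (0.0286). It also passed in limma without wild type replicate 2 (adjusted p = 0.0454), djc31 replicate 1 (0.0426), djc31 replicate 3 (0.0384) or double mutant replicate 2 (0.0454). APR3 was 1.67-fold higher in djc62 than in djc31 (limma adjusted p = 0.0118), a call lost without djc62 replicate 2 (0.0518) or djc62 replicate 3 (0.0676).

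SULTR1;2 (AT1G78000, chromosome 1), a high-affinity transporter for sulfate uptake in roots, had 245.6, 197.6 and 239.2 in djc31, 151.4, 168.7 and 201.8 in djc62, 236, 255.2 and 203.3 in the double mutant, and 205.3, 274.7 and 155.4 in wild type. Every mutant overlapped wild type. Its ratio to wild type was 1.1 in djc31 (interval 0.818 to 1.47), 0.839 in djc62 (0.625 to 1.13) and 1.12 in the double mutant (0.833 to 1.5), with limma adjusted p = 0.663, 0.385 and 0.592. SULTR1;1 (AT4G08620, chromosome 4), its relative that is induced in roots short of sulfur, had 0 reads in all 12 libraries. A count of 0 allows up to 3 reads, or a value of 2.23 to 6.45 depending on the library, and such limits cover counting error only.

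GGCT2;1 (AT5G26220, chromosome 5) encodes a gamma-glutamyl cyclotransferase that breaks down glutathione in the cytosol. It had 21.2, 17.2 and 25.4 in djc31, 16.3, 11.9 and 16.9 in djc62, 34.7, 60.3 and 60.2 in the double mutant, and 30.5, 25.7 and 19.7 in wild type. All double mutant libraries lay above every other library, while djc31 overlapped wild type and djc62 lay below it. GGCT2;1 was 3.22-fold higher in the double mutant than in djc62 (log2 change 1.69 ± 0.37 SE, limma adjusted p = 0.00416) and 2.33-fold higher than in djc31 (1.22 ± 0.37, adjusted p = 0.0204). The call against djc31 was lost in limma without djc31 replicate 2 (adjusted p = 0.0522), double mutant replicate 2 (0.0955) or double mutant replicate 3 (0.0815). Against wild type the double mutant stood at 1.97 times the level (interval 1.14 to 3.41, limma adjusted p = 0.0582). edgeR (adjusted p = 0.0481) and DESeq2 (0.0294) on recovered reads called that difference, as did limma on those 2 genotypes alone (0.0371). It also passed in limma with 10 added to each value (adjusted p = 0.0299), with the same total per library (0.0187) and without djc31 replicate 2 (0.0461) or double mutant replicate 1 (0.0458). Neither single mutant passed, with ratios to wild type of 0.849 in djc31 (interval 0.491 to 1.47, limma adjusted p = 0.682) and 0.612 in djc62 (0.354 to 1.06, adjusted p = 0.179).

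**Figure D2:**
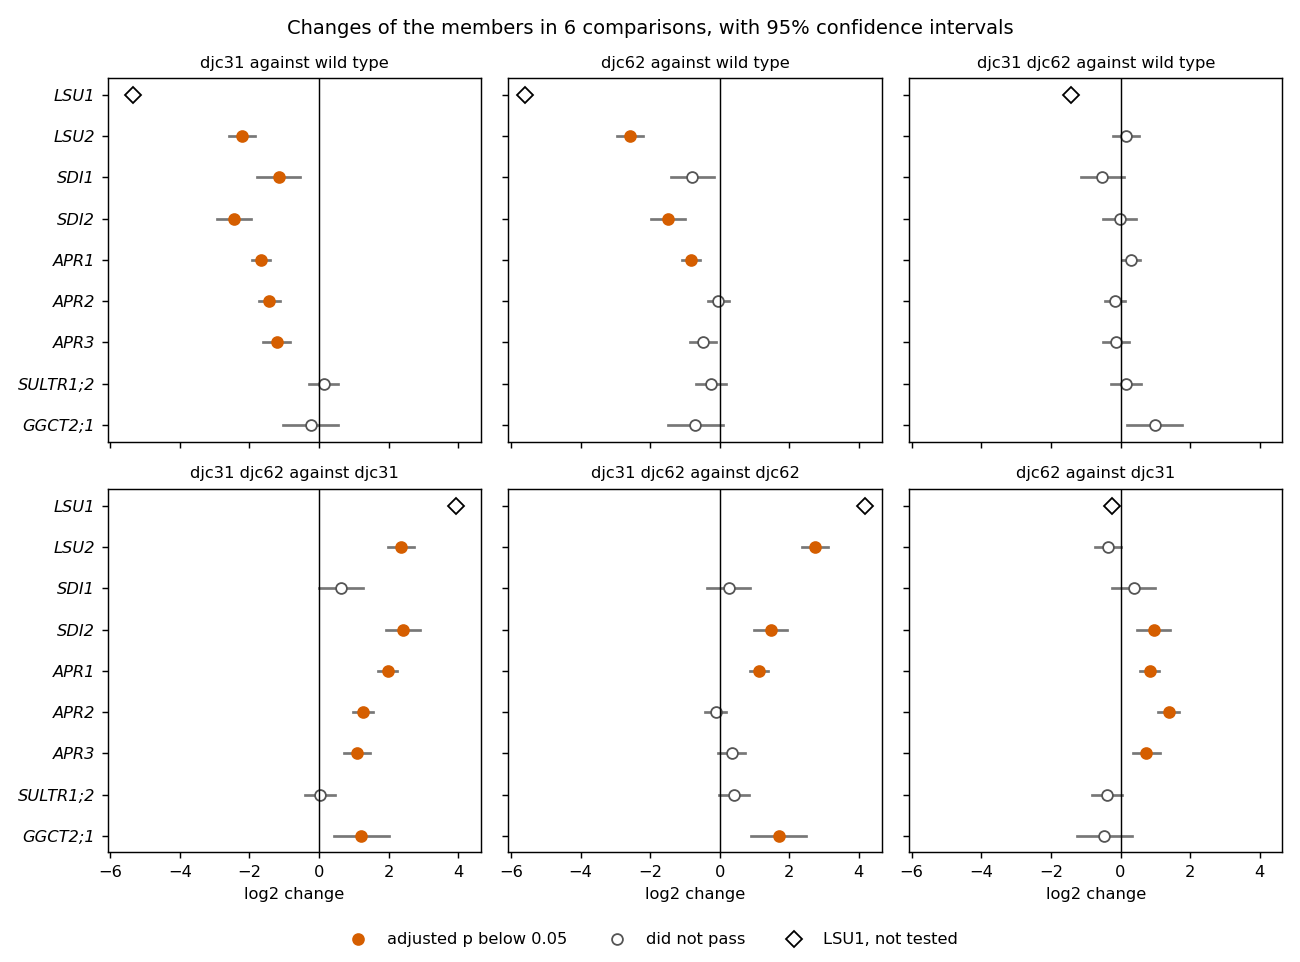
Log2 changes (x axis) of 9 genes (y axis) in 6 comparisons, 1 panel each, from limma on log2(value + 1) with 95% confidence intervals as grey lines. Filled circles passed an adjusted p of 0.05, open circles did not, and the open diamond is LSU1, which was not tested. The panel for djc31 against wild type has 6 filled circles left of 0, that for the double mutant against wild type none, and that for the double mutant against djc31 6 right of 0.

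The non-additive change is the log2 change of the double mutant against wild type, less the changes of djc31 and djc62 added together, and is 0 where the changes add up. For LSU1 it was 9.52, the highest of 19975 loci, and with 10 rather than 1 added to each value it was 5.79. The falls of LSU1 in djc31 and djc62, added together on the log2 scale, exceed its whole wild-type level. As no value can lie below 0, they could not add up in full. Its non-additive change and rank are thus in part set by this floor. The next highest of these loci was HA9 (AT1G80660), a proton pump gene, at 7.95. LSU2 had 4.94, SDI2 3.90, APR1 2.81, GGCT2;1 1.93, APR3 1.56, SDI1 1.42, APR2 1.30 and SULTR1;2 0.28. Over all loci the median was -0.0032 and the quartiles were -0.42 and 0.57.

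**Figure D3:**
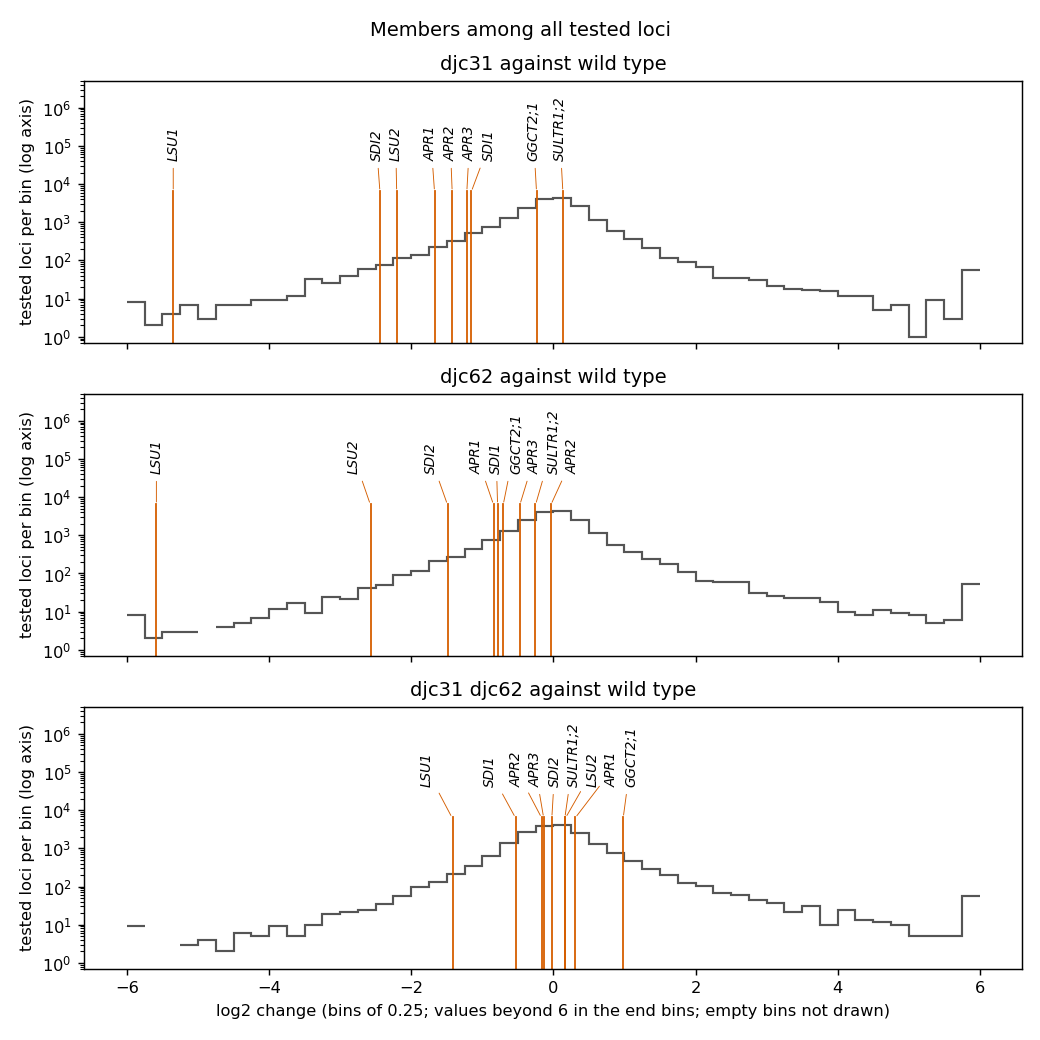
Number of tested loci per bin of log2 change (y axis, log scale) against log2 change (x axis) for djc31, djc62 and the double mutant against wild type, with the 9 genes as vertical lines. In djc31, 7 of the 9 lines, LSU1 among them, lie below -1, whereas in the double mutant LSU1 alone does, at -1.42.

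Within a genotype, some libraries were high for most of the 9 genes with reads. Double mutant replicate 2 was the highest double mutant library for 7 of them, djc62 replicate 3 the highest djc62 library for 7, and wild type replicate 3 the highest wild-type library for 5, and djc31 replicate 1 the highest djc31 library for 5. In TAIR10.1 another annotated gene overlaps SDI2, APR1, APR2 and APR3, and a strand setting is not stated for the counts. The gene at APR1 averaged 595.5 in djc31, 437.4 in djc62, 391.7 in the double mutant and 520.1 in wild type. The one at APR3 averaged 683, 512.7, 556.7 and 495.3 in the same order, and the one at SDI2 77.7, 54.9, 98.5 and 69.1. Both genes at APR2 had values of at most 10.6 in any library. The partners of APR1 and APR3 had their highest means in djc31, where APR1 and APR3 had their lowest. The partner of SDI2 had its highest mean in the double mutant and its lowest in djc62, while SDI2 was lowest in djc31. The part of overlapping reads in the results was not tested.

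By the root-mean-square difference of log2 profiles over the 12 libraries, centred per locus, the 5 loci outside the list most like LSU1 were ABCF2 (AT5G09930), XTH31, ORA47, JAZ7 and BBX30, at differences of 0.956, 1.31, 1.31, 1.36 and 1.39. The LSU1 profile itself had a root mean square of 2.59, and the median difference over all loci was 2.62. ABCF2, an ABC-type ATPase gene, averaged 1.16 ± 1.08 in djc31, 0.796 ± 0.771 in djc62, 14.1 ± 6.3 in the double mutant and 21 ± 8.89 in wild type. XTH31, a cell wall xyloglucan enzyme gene, averaged 136 ± 52, 234 ± 17.3, 744 ± 98.6 and 1970 ± 671 in the same order. The ABCF2 means in the single mutants lie below the value of 3 reads, 2.23 to 6.45 depending on the library. ORA47 encodes an AP2-type transcription factor and JAZ7 a repressor of jasmonate signalling. In the same order ORA47 averaged 46 ± 21, 24.1 ± 8.69, 85.8 ± 28.1 and 497 ± 297. JAZ7 averaged 48.9 ± 19, 51.6 ± 37.9, 134 ± 74.7 and 534 ± 111, and BBX30 5.87 ± 8.75, 6.08 ± 0.954, 26.9 ± 8.27 and 83.8 ± 35.5. Among the listed genes LSU2 was the most like LSU1 (1.53, rank 20 of 19974), followed by SDI2 (1.80, rank 101) and APR1 (2.01, rank 310). SULTR1;2 was the least like it (2.55, rank 6621).

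Other genes of sulfur metabolism were read from lists of 43 loci, 42 of which passed the filter. BGLU28, LSU3 and SULTR1;3 had less than 10 in every library of at least 1 genotype, so they passed through the other genotypes and are left out of the counts. BGLU28 averaged 5.23 ± 5.31 in djc31, 7.26 ± 2.79 in djc62, 4.36 ± 4.6 in the double mutant and 18.11 ± 5.17 in wild type. All its mutant libraries, those of the double mutant included, lay below all wild-type libraries. SULTR1;3 averaged 1.45 ± 1.34, 2.42 ± 0.929, 33.37 ± 13.9 and 13.23 ± 2.65 in the same order. Of the 39 genes counted, 7 rose (17.9%) and 10 fell (25.6%) in djc31, where 13.3% of all loci were higher and 14.2% lower. In djc62 12 rose (30.8%) and 5 fell (12.8%), beside 13.7% and 13% of all loci. In the double mutant 6 rose (15.4%) and 5 fell (12.8%), near the 13.8% and 15.5% of all loci. Of 3 other sulfur starvation genes counted, SHM7 fell in both single mutants and LSU4 rose in the double mutant, with medians of -0.05, 0.074 and 0.21 in djc31, djc62 and the double mutant. SHM7 averaged 441.4 ± 61.8 in djc31, 546.5 ± 71.7 in djc62, 854 ± 49.3 in the double mutant and 808.3 ± 114 in wild type. It was 1.83-fold lower in djc31 (limma adjusted p = 0.000167) and 1.48-fold lower in djc62 (adjusted p = 0.00669), and the double mutant was above djc31 (adjusted p = 0.00012) and djc62 (0.0036).

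Of 9 other sulfate transporters counted, 1 rose (11.1%) and 3 fell (33.3%) in djc31, beside 13.3% and 14.2% of all loci. In djc62 2 rose (22.2%) and 2 fell (22.2%), beside 13.7% and 13% of all loci. In the double mutant 3 rose (33.3%) and 1 fell (11.1%), beside 13.8% and 15.5% of all loci. The medians were -0.15, -0.17 and 0.31 in djc31, djc62 and the double mutant. SULTR3;1, of a group found in the chloroplast, averaged 212.7 ± 36.2 in djc31, 333.2 ± 23.8 in djc62, 579.3 ± 33.2 in the double mutant and 654.2 ± 98.7 in wild type. It fell in djc31 (log2 change -1.62, limma adjusted p = 3.93e-07) and djc62 (-0.96, 0.000125). The double mutant was higher than djc31 (1.45, limma adjusted p = 4.29e-06) and djc62 (0.80, 0.00124). SULTR3;3 went the other way, with 1380 ± 39.4 in djc31, 1121 ± 37.4 in djc62, 670.5 ± 43 in the double mutant and 503.4 ± 86.5 in wild type. It rose in djc31 (1.47, limma adjusted p = 8.61e-08), djc62 (1.17, 1.51e-06) and the double mutant (0.42, 0.0133). SULTR3;5 averaged 171.9 ± 14.9 in djc31, 234.3 ± 8.14 in djc62, 98.0 ± 3.71 in the double mutant and 190.1 ± 26.2 in wild type, with limma adjusted p = 0.577, 0.188 and 0.000446 for the mutants against wild type.

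Genes that activate sulfate and reduce sulfite were also mixed. Of 9 tested, 1 rose (11.1%) and 4 fell (44.4%) in djc31, beside 13.3% and 14.2% of all loci. In djc62 4 rose (44.4%) and 1 fell (11.1%), beside 13.7% and 13% of all loci. In the double mutant 1 rose (11.1%) and 2 fell (22.2%), beside 13.8% and 15.5% of all loci. The medians were -0.25, 0.21 and 0.18 in djc31, djc62 and the double mutant. The ATP sulfurylase gene APS2 averaged 1865 ± 229 in djc31, 3020 ± 64.9 in djc62, 2808 ± 97.4 in the double mutant and 3621 ± 438 in wild type. It was lower than wild type in djc31 (-0.96, limma adjusted p = 3.96e-06) and the double mutant (-0.36, 0.0194). The APS kinase gene APK2, of the branch that supplies sulfate donors for glucosinolates, averaged 1885 ± 94 in djc31, 4092 ± 288 in djc62, 4210 ± 617 in the double mutant and 2867 ± 427 in wild type. Its log2 changes against wild type were -0.60, 0.52 and 0.55 (limma adjusted p = 0.00134, 0.00402 and 0.00253). APK4, of the same family, averaged 117.3 ± 25 in djc31, 70.7 ± 19.3 in djc62, 115.2 ± 17.7 in the double mutant and 245.9 ± 43.5 in wild type, with changes of -1.07, -1.80 and -1.08 (limma adjusted p = 0.00253, 2.18e-05 and 0.0024).

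Glutathione genes that changed in the single mutants were higher than in wild type. Of 7 tested, 3 rose in djc31 (42.9%) and 4 in djc62 (57.1%), beside 13.3% and 13.7% of all loci. In the double mutant 1 fell (14.3%), near the 15.5% of all loci, and 6 did not pass. The medians were 0.25, 0.29 and 0.16. GSH2, the glutathione synthetase gene, averaged 3527 ± 282 in djc31, 4050 ± 224 in djc62, 1993 ± 128 in the double mutant and 1677 ± 277 in wild type. It rose in djc31 (log2 change 1.08, limma adjusted p = 2.45e-06) and djc62 (1.28, 3.99e-07). The double mutant was below djc31 (limma adjusted p = 9.52e-05) and djc62 (1.6e-05). GGCT2;2, in the enzyme family of GGCT2;1, averaged 2750 ± 122 in djc31, 2315 ± 280 in djc62, 870.9 ± 96.7 in the double mutant and 1362 ± 123 in wild type. It rose in djc31 (limma adjusted p = 3.99e-06) and djc62 (9.8e-05) and fell in the double mutant (0.000486), where GGCT2;1 had its highest values. The gamma-glutamyl peptidase gene GGP1 averaged 4058 ± 917 in djc31, 6619 ± 1170 in djc62, 5022 ± 599 in the double mutant and 4012 ± 574 in wild type, and rose in djc62 (limma adjusted p = 0.00263).

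Of 8 cysteine synthesis genes, 2 rose and 1 fell in each single mutant, and 1 rose and 1 fell in the double mutant, with medians of -0.019, 0.12 and 0.05 in djc31, djc62 and the double mutant. These counts of 3, 3 and 2 of 8 are near the share of all loci called, 27.5%, 26.7% and 29.2%. SERAT1;1, a serine acetyltransferase that makes O-acetylserine in the cytosol, averaged 1540 ± 166 in djc31, 1639 ± 132 in djc62, 1317 ± 24 in the double mutant and 962 ± 40.5 in wild type (limma adjusted p = 0.000121, 3.62e-05 and 0.00391 against wild type). SERAT3;1, of the same enzyme family, averaged 320.7 ± 26.2, 266.5 ± 16.6, 310.8 ± 49.7 and 431 ± 37.9 in the same order (limma adjusted p = 0.0406, 0.00211 and 0.0217). SERAT1;1 was thus high and SERAT3;1 low in all 3 mutants. OASC, the mitochondrial O-acetylserine (thiol) lyase gene, averaged 1516 ± 166 in djc62 and 1104 ± 34.5 in wild type (limma adjusted p = 0.00549). Of 3 methionine synthesis genes, 1 fell in djc31 (33.3%, beside 14.2% of all loci), and the other 2 did not pass there. The gene was CGS1, at 7667 ± 754 in djc31 against 10440 ± 1140 in wild type (limma adjusted p = 0.00468). In djc62 and in the double mutant none of the 3 passed against wild type in limma, edgeR or DESeq2. Limma called 26.7% and 29.2% of all loci in those comparisons. In each tool 1 of the 3 was higher there at an unadjusted p under 0.05. The medians were -0.073, -0.056 and -0.063 in djc31, djc62 and the double mutant.

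**Figure D4:**
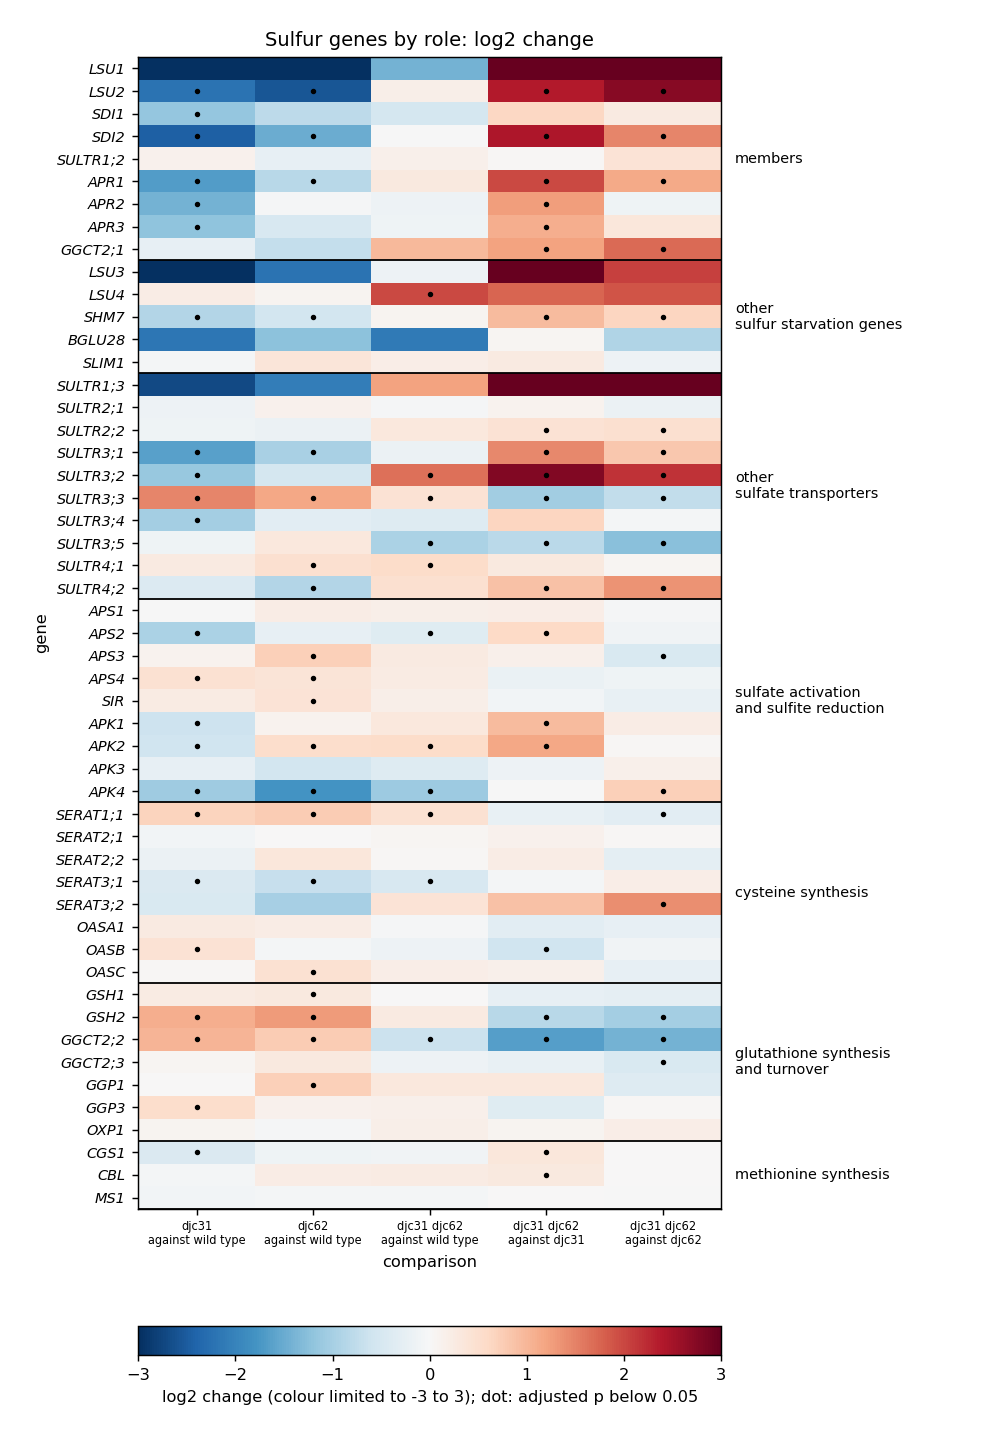
Log2 change (colour, limited to -3 to 3) of the tested sulfur genes (rows, by role) in 5 comparisons (columns). A dot marks an adjusted p below 0.05 in limma, and LSU1, BGLU28, LSU3 and SULTR1;3 carry none because they are given without a test. LSU2, SDI2, APR1, SHM7 and SULTR3;1 have dots on blue in both single mutants and on red in the 2 columns that set the double mutant against a single mutant, and SULTR3;3, GSH2 and GGCT2;2 the opposite colours.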

How the data were processed

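RNA from whole plants was sequenced from 3 libraries of each of 4 genotypes. The authors' deposited table holds a signal per locus and library that the file itself ties to DESeq2: each value is a whole read count divided by 1 factor per library, since 100% of values came out whole within 0.01 of a read. Trimmomatic, FastQC and featureCounts on TAIR10 were used, per the submitters' processing notes; the aligner and the strand setting are not stated.

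The main test was limma 3.58.1 (R 4.3.3) with its trend option, fitted to log2(value + 1) with 1 mean per genotype over all 12 libraries (8 residual degrees of freedom), on the 19975 of 36917 loci with 10 or more in at least 3 libraries. P-values were adjusted by Benjamini-Hochberg per comparison, with a threshold of 0.05. Alternatives were 0.5 or 10 added before the log2, no filter, TMM or equal-total scaling, fits of the 2 genotypes alone, a replicate block, each library left out in turn, and edgeR 4.0.16 and DESeq2 1.42.0 on the recovered reads. The fits were also run on simulated data with changes in djc31 alone and an assumed spread. That run checks the code and does not vouch for the calls given here.

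The genes and lists were chosen with earlier results of these data known. From each other sulfur list, up to 3 genes with the lowest adjusted p against wild type are named, with the 5 loci most like LSU1. Genes with less than 10 in every library of a genotype (BGLU28, LSU3, SULTR1;3) were left out of list counts, a choice made after seeing the data. Names and neighbours come from RefSeq's TAIR10.1 annotation.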

Additional observations from a re-analysis of the deposited data

How the results depend on the processing

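No called change of the 8 tested genes turned its direction under the alternatives run, while some that did not pass changed sign, such as APR2 in djc62 against wild type (log2 change -0.14 to 0.14). In djc62 against wild type, 3 genes were called, against 5 in DESeq2 and 3 to 5 with a library left out. In the double mutant against wild type, 0 were called, against 1 with 10 added, 2 with the same total per library, 1 in edgeR, 1 in DESeq2, 1 with the 2 genotypes alone and 0 to 1 with a library left out. In djc62 against djc31, 4 were called and 2 to 4 with a library left out, and the count over all loci was 2749, against 1093 with the 2 genotypes alone and 1112 to 3192 with a library left out. Over all loci, leaving out a library gave 4073 to 6589 calls for the double mutant against djc31 (6255 with all) and 2375 to 4739 against djc62 (3942 with all). The cause was not tested. The non-additive change of LSU1 was 5.79 with 10 added to each value, which compresses changes of low genes by construction. With the replicate block the counts among the 8 genes were 6, 3 and 0 in djc31, djc62 and the double mutant against wild type, and no call among them changed. Over all loci the replicate block gave 5204, 5048 and 5509 calls. Deviations of libraries with the same number in different genotypes correlated at -0.151 to 0.106, and those with different numbers at -0.13 to 0.164. Of 12 libraries, 2 were closest to their own number. LSU1 rests on 7 and 10 reads in djc31 and djc62, which limits the precision of its values there.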
